A study of Mus musculus with 4 samples.

Results

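The 36 genes described here encode scaffold proteins of the postsynaptic membrane and the auxiliary subunits of glutamate receptors. They were taken from the 55421 genes of the count tables by a fixed list of gene symbols, matched through the gene identifiers, and the rule uses no measured value. The list holds the PSD-95 family (Dlg1 to Dlg4), the Shank scaffolds, the Homer adaptors and the SAPAP scaffolds (Dlgap1 to Dlgap4). It also holds 6 PDZ and related scaffolds, 8 genes grouped as regulators of actin and small GTPases, gephyrin (Gphn), and 7 auxiliary subunits. All 36 had enough reads to be tested, with between 94 and 5271 counts per library.

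The study followed the cell types that arise when prefrontal cortex (PFC), mainly of human fetuses, is cultured, and the mouse cultures addressed whether fibroblast growth factor 2 (FGF2), which acts on neural progenitors and glia, has like effects in another species. Wild-type C57BL/6 mice at postnatal day 0 gave PFC tissue that was digested with papain, dispersed to single cells and kept for 10 days in neurobasal medium with the B27 and GlutaMAX supplements. The treated group received FGF2 at 5 ng/mL and the control group received none, and both shared the tissue, the strain, the medium and the culture time. Total RNA was sequenced from 2 libraries per group, numbered 1 and 2 here. Nothing in the labels says that the libraries of a group came from separate cultures, and the methods mention technical replicates, so the p-values measure only the spread between these libraries, which may be technical. No cell type was sorted, and the dish holds whatever neurons and glia survived or arose in it.

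At an excitatory synapse, glutamate released by one neuron opens AMPA and NMDA receptors on the next. PSD-95 and its relatives hold these receptors beneath the membrane with PDZ domains. SAPAP proteins bind PSD-95 on one side and Shank proteins on the other, Homer proteins tie Shank to metabotropic glutamate receptors, and further regulators connect this layered density to the actin of the dendritic spine. The auxiliary subunits (TARPs, cornichons and Neto proteins) travel with AMPA or kainate receptors and set how fast these close and how many reach the surface.

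The Homer genes were the family whose members moved in opposite directions, so the DNA just upstream of their transcription start sites is shown here. The sequences are from RefSeq (GRCm38.p6, the build mm10), read 5′ to 3′ on the strand of the gene and shortened where an annotated exon begins. Homer1 lies upstream of the start at chr13:93303507-93303756 (plus strand), Homer2 at chr7:81706945-81707175 (minus strand) and Homer3 at chr8:70282749-70282826 (plus strand). The starts are those of RefSeq, and GENCODE begins Homer1 and Homer2 further upstream, so these stretches of both genes lie within the GENCODE gene, outside its exons. Capitals mark TGACG, the core of the cyclic AMP response element, and CCGGAAGT, a site of ETS factors, searched on both strands.
Homer1: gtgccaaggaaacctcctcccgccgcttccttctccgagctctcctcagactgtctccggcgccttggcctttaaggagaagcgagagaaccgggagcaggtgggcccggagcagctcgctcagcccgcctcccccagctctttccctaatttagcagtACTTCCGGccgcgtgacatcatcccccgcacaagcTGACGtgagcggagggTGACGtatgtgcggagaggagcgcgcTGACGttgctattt
Homer2: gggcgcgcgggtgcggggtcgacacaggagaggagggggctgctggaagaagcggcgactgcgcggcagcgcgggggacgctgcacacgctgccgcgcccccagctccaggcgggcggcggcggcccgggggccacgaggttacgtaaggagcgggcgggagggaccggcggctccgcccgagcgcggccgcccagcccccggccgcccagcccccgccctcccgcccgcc
Homer3: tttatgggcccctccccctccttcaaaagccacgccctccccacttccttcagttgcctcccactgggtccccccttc
The Homer1 sequence holds TGACG 3 times and the ETS site 1 time on the opposite strand, and the other two sequences hold neither. The GC content was 62.4% for Homer1, 82.3% for Homer2 and 62.8% for Homer3.

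Transcripts of the postsynaptic genes were mostly at lower levels in the cultures with FGF2. Of the 36 genes, 30 fell, 2 rose (Homer3 and Synpo) and 4 did not pass the test (Dlg1, Pick1, Magi2 and Gphn), by the quasi-likelihood test of edgeR with Benjamini-Hochberg adjustment over all 17144 genes tested and a threshold of 0.05. Since whole cultures were sequenced, fewer neurons and less of these transcripts per neuron cannot be told apart in any of these values. Across all genes tested, 19.9% were lower with FGF2 and 20.7% were higher, together 40.5%. By DESeq2 28 of the 36 fell and 1 rose, against 11.2% lower and 12% higher among all genes. At an adjusted p of 0.01 in edgeR 29 fell and 2 rose, against 15.3% lower and 16.4% higher. The median log2 fold change was -0.49 over the 36 genes and -0.0008 over all genes tested. The genes that fell had log2 fold changes from -0.88 (Grip2) to -0.12 (Iqsec1), and the median of these was a level 29.2% lower with FGF2. No member changed by more than 1 on the log2 scale, and 15 of the genes that fell did so by at least 0.5.

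In 31 of the 36 genes both libraries with FGF2 lay below both libraries without FGF2, which was so for 33.4% of all genes tested. Homer3 and Synpo lay above in both libraries, against 33.6% of all genes. The groups overlapped for Dlg1, Pick1 and Gphn, while Magi2 separated by a margin too small for the test. Summed over the 36 genes, the level was 4495 and 4458 CPM (counts relative to the total of a library) with FGF2 and 5835 and 5961 CPM without, a mean 24.1% lower.

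**Figure D1:**
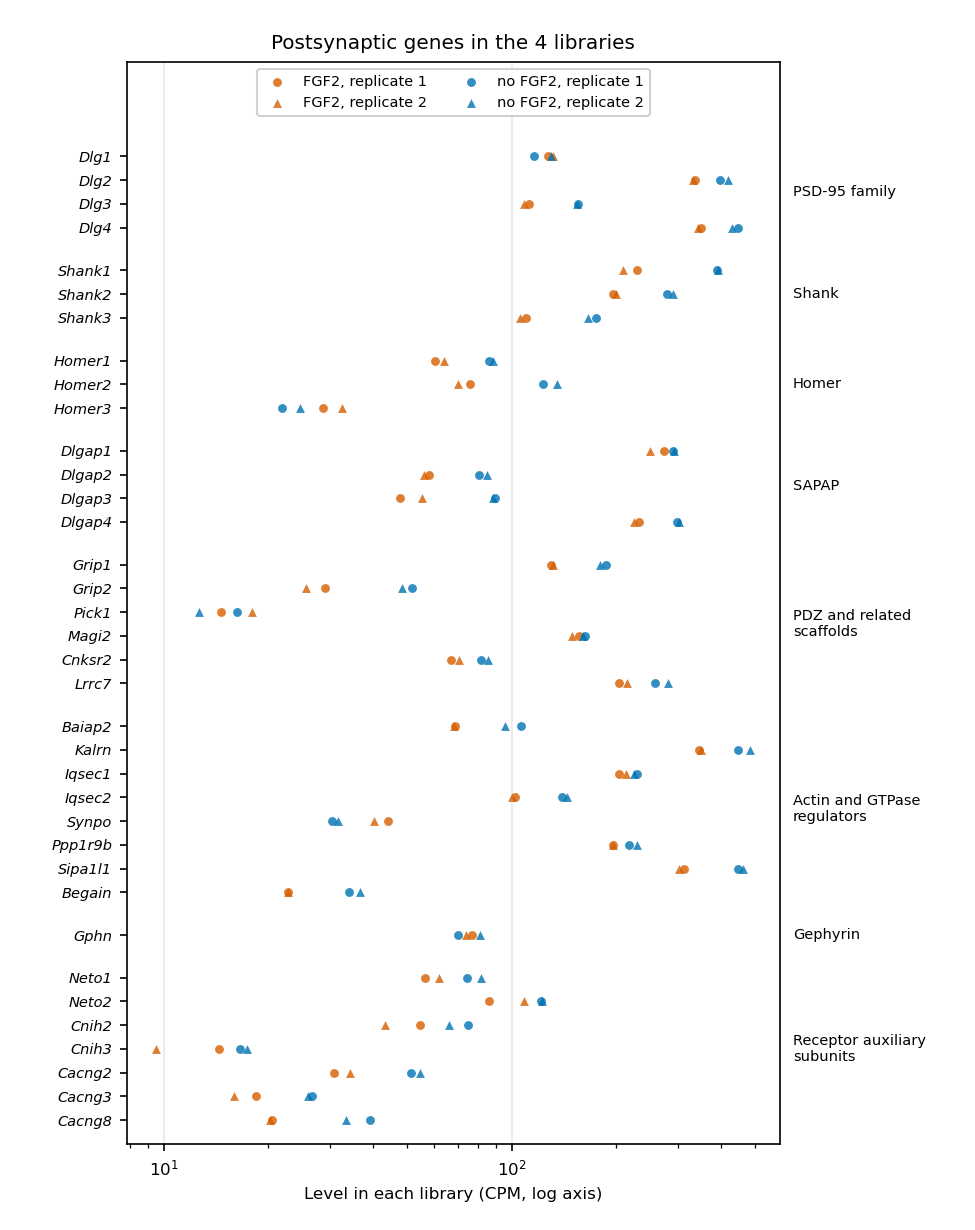
Level of each of the 36 genes in the 4 libraries, in CPM on a log axis, grouped by role, with orange for FGF2, blue for no FGF2, circles for replicate 1 and triangles for replicate 2. Blue lies to the right of orange for 31 genes and to the left for Homer3 and Synpo.

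The PSD-95 family divided into 3 members that fell and 1 that did not pass the test. Dlg3, which encodes SAP102, the family member that is prominent at young synapses, had 112 and 109 CPM with FGF2 and 155 and 154 CPM without FGF2. Both treated libraries were lower by a margin far wider than the gap within either group, with a log2 fold change of -0.49 ± 0.06 (SE) and an adjusted p of 1.7e-15. Dlg4, which encodes PSD-95 itself, fell by 0.34 on the log2 scale (adjusted p = 3.1e-16), and Dlg2, which encodes PSD-93, fell by 0.28 (adjusted p = 3e-11). Dlg1 encodes SAP97, which is also made in many cells other than neurons. Its level was 128 and 131 CPM with FGF2 and 116 and 129.5 CPM without FGF2, with a log2 fold change of 0.08 (95% interval -0.04 to 0.19, adjusted p = 0.33). The Dlg1 values of the groups overlapped while the other 3 genes fell, so Dlg1 took a larger part of the family. Per exon length it made up 15.2% and 15.8% of the summed Dlg level with FGF2 and 11.3% and 12.5% without FGF2.

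All 3 Shank genes fell. Shank proteins form the deep layer of the postsynaptic density and link the receptor complexes to actin. Shank1 (chr7:44310253-44360572) had 229.7 and 209 CPM with FGF2 and 388 and 393 CPM without FGF2, and its log2 fold change of -0.83 ± 0.04 (SE) had the smallest adjusted p of the 36 genes, 8.2e-80. Shank2 (chr7:144001928-144424494) had 196 and 199.96 CPM with FGF2 against 280.2 and 291 CPM, with a log2 fold change of -0.53 ± 0.05 (SE) and an adjusted p of 1.5e-28. Shank3 (chr15:89499623-89560261) had 110.1 and 106 CPM with FGF2 against 174 and 166 CPM, with a log2 fold change of -0.66 ± 0.06 (SE) and an adjusted p of 4e-28. In none of the 3 genes did a treated library come near a control library. As shares of the summed Shank level per exon length, Shank1 went from 45.1% and 45.4% without FGF2 to 42.0% and 39.8% with FGF2, and Shank2 from 31.8% and 32.7% to 35.0% and 37.2%. Shank3 stayed between 21.9% and 23.2% in the 4 libraries.

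The Homer genes did not move together. Homer1 and Homer2 fell and Homer3 rose. Homer proteins pair through coiled coils and join Shank to metabotropic glutamate receptors and to calcium channels of the endoplasmic reticulum. Homer1 (chr13:93299635-93405129) had 60.3 and 63.9 CPM with FGF2 and 86.0 and 88.2 CPM without FGF2, with a log2 fold change of -0.49 ± 0.08 (SE) and an adjusted p of 1.1e-09. Homer2 (chr7:81600481-81707527) had 76.2 and 70.1 CPM with FGF2 and 123 and 135 CPM without FGF2, with a log2 fold change of -0.82 ± 0.07 (SE) and an adjusted p of 7e-33. For both genes the groups were clearly apart.

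Homer3 (chr8:70282827-70294361) had 28.7 and 32.55 CPM with FGF2 and 21.9 and 24.6 CPM without FGF2. The treated libraries were higher, but the gap between the groups was about as wide as the gap within the treated group. Its log2 fold change was 0.40 ± 0.12 (SE), with an adjusted p of 0.0029. By DESeq2 the log2 fold change was 0.39 with an adjusted p of 0.11. The call was also lost in edgeR without FGF2 replicate 2 (0.30, adjusted p = 0.09) and without control replicate 1 (0.31, adjusted p = 0.10). Ddx49, a gene on the opposite strand, covers 25.4% of the exon length of Homer3. Reads of the pair were counted by strand, and Ddx49 had a log2 fold change of 0.04 (adjusted p = 0.85).

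The make-up of the Homer family therefore differed between the groups. Per exon length, Homer3 made up 43.0% and 46.5% of the summed Homer level with FGF2 and 27.4% and 28.4% without FGF2. Homer2 made up 31.1% and 27.3% with FGF2 and 41.8% and 42.4% without FGF2. The share of Homer1 was 26.0% and 26.2% against 30.8% and 29.2%. None of these shares overlapped between the groups, and an exact two-sided permutation test gave p = 0.333 for each, the smallest that 2 libraries against 2 allow. With the coding length in place of the exon length, Homer3 made up 18.5% with FGF2 and 9.75% without FGF2 and Homer2 44.9% and 54.8%, while the share of Homer1 was then 36.5% and 35.5% and its groups overlapped. Homer3 had the larger share and Homer2 the smaller share with FGF2 under both lengths.

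**Figure D2:**
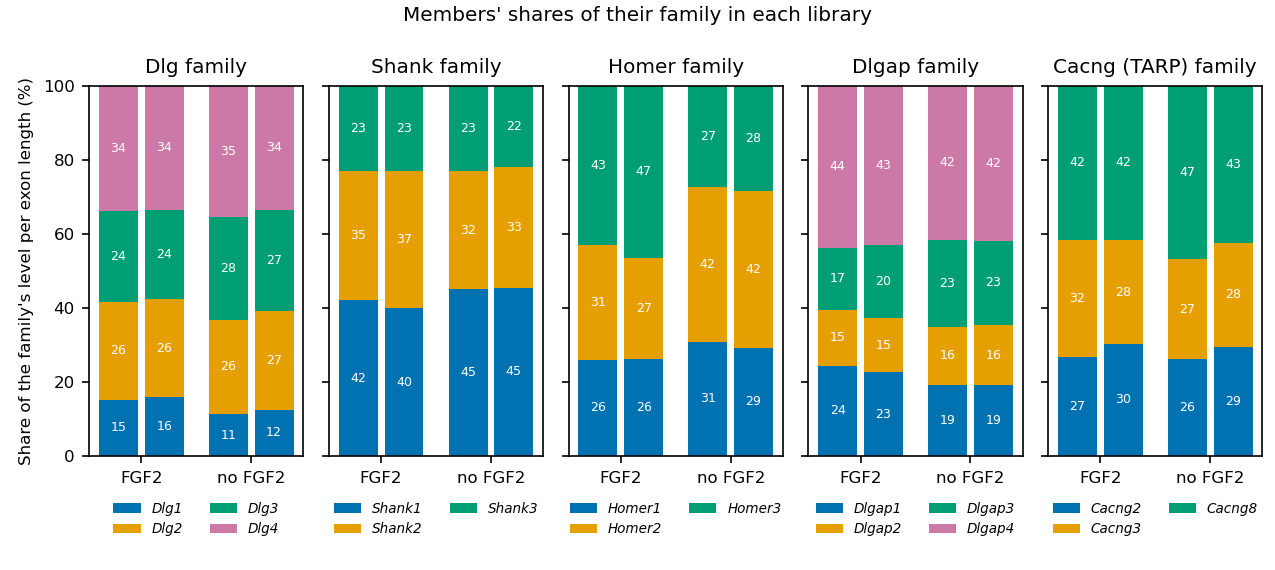
Share of each member in the summed level of its family per exon length (percent), for the 5 families with 3 or more members, with 1 bar per library and replicates 1 and 2 side by side. The Homer family shows the widest shift, with Homer3 at 43.0% and 46.5% with FGF2 and at 27.4% and 28.4% without FGF2.

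All 4 SAPAP genes fell, by different amounts. SAPAP proteins bridge PSD-95 to Shank. Dlgap3 had 47.8 and 55.4 CPM with FGF2 and 89.5 and 88.4 CPM without FGF2, with a log2 fold change of -0.78 ± 0.08 (SE) and an adjusted p of 2.5e-22. Dlgap2 had 57.9 and 56.2 CPM with FGF2 and 80.7 and 85.2 CPM without FGF2, with a log2 fold change of -0.54 ± 0.08 (SE) and an adjusted p of 3.6e-11. The groups were well apart for both genes. Dlgap4 fell by 0.40 on the log2 scale (adjusted p = 2.2e-17). Dlgap1 was at the other end of the family, with 275 and 250.2 CPM with FGF2 and 292 and 294 CPM without FGF2, a log2 fold change of -0.16 and an adjusted p of 0.0012. The treated libraries of Dlgap1 differed from each other more than the higher of them differed from the controls, and without FGF2 replicate 2 the log2 fold change was -0.10 (adjusted p = 0.12). Dlgap3 made up 16.8% and 19.7% of the summed Dlgap level per exon length with FGF2 and 23.4% and 22.8% without FGF2, and Dlgap1 24.4% and 22.5% against 19.3% and 19.2%.

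Of the 6 PDZ and related scaffolds, 4 fell and 2 did not pass the test. Grip1 and Grip2 are adaptors that bind the tails of AMPA receptor subunits. Grip2 (chr6:91761509-91827250) had the largest log2 fold change of the 36 genes. It had 29.0 and 25.7 CPM with FGF2 and 51.8 and 48.5 CPM without FGF2, a log2 fold change of -0.88 ± 0.10 (SE) and an adjusted p of 1.3e-16. Grip1 had 129 and 132 CPM with FGF2 and 186 and 179.6 CPM without FGF2, with a log2 fold change of -0.49 ± 0.06 (SE) and an adjusted p of 1.3e-17. Neither gene overlapped between the groups. Pick1 encodes a PDZ and BAR domain protein that competes with Grip proteins for AMPA receptor tails and takes part in receptor internalization. Its values of 14.6 and 17.9 CPM with FGF2 and 16.2 and 12.6 CPM without FGF2 crossed over, and the log2 fold change of 0.18 had a 95% interval from -0.12 to 0.48 (adjusted p = 0.37). A change in Pick1 of the size seen in Grip2 lies outside that interval. Cnksr2, a scaffold of the postsynaptic density, fell by 0.28 on the log2 scale (adjusted p = 0.00075), and Lrrc7, which encodes densin-180, a partner of CaMKII and Shank, fell by 0.37 (adjusted p = 3.5e-14). Magi2, a scaffold of synapses and of other cell junctions, had a log2 fold change of -0.08 (95% interval -0.18 to 0.03, adjusted p = 0.27).

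Among the 8 genes that the list grouped as regulators of actin and small GTPases, 7 fell and Synpo rose. The 7 include Begain, which is described here only by its binding to PSD-95. Sipa1l1, which encodes SPAR, a Rap GTPase-activating protein of spines, had 312 and 303 CPM with FGF2 and 446 and 462 CPM without FGF2, a log2 fold change of -0.56 ± 0.04 (SE) and an adjusted p of 1.4e-42. Baiap2, which encodes IRSp53, a membrane-bending partner of Shank and PSD-95, had 68.7 and 68.3 CPM with FGF2 and 106 and 96.0 CPM without FGF2, with a log2 fold change of -0.56 ± 0.07 (SE) and an adjusted p of 6.9e-14. Begain, named for its binding to the guanylate kinase domain of PSD-95, had 22.8 CPM in each treated library and 34.1 and 36.7 CPM in the controls, with a log2 fold change of -0.63 ± 0.12 (SE) and an adjusted p of 2.8e-07. In these 3 genes no treated library reached a control value. Kalrn, a guanine nucleotide exchange factor that enlarges spines, fell by 0.42 on the log2 scale (adjusted p = 2.3e-25).

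Iqsec1 and Iqsec2 both encode exchange factors for Arf6 at the postsynaptic density, and they differed in size of change. Iqsec2 had 102 and 100.2 CPM with FGF2 and 139.8 and 144 CPM without FGF2, with a log2 fold change of -0.49 ± 0.06 (SE) and an adjusted p of 2.1e-14. Iqsec1 had 204 and 213 CPM with FGF2 and 229 and 225 CPM without FGF2, with a log2 fold change of -0.12 ± 0.05 (SE) and an adjusted p of 0.031. The groups of Iqsec1 did not overlap, but its call was the least stable of the 36. It was lost by DESeq2 (adjusted p = 0.18), without the expression filter (adjusted p = 0.067), with offsets for GC content and length (-0.04, adjusted p = 0.57), without FGF2 replicate 1 (-0.09, adjusted p = 0.18), without control replicate 1 (-0.11, adjusted p = 0.21) and without control replicate 2 (-0.14, adjusted p = 0.11). Iqsec1 made up 54.5% and 56.1% of the pair per exon length with FGF2 and 49.6% and 48.4% without FGF2.

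Synpo (chr18:60593973-60660142) was the other gene that rose. It encodes synaptopodin, an actin-binding protein of the spine apparatus that is also made outside neurons, in kidney podocytes. It had 44.2 and 40.3 CPM with FGF2 and 30.5 and 31.6 CPM without FGF2, and both treated libraries were clearly higher. The log2 fold change was 0.44 ± 0.10 (SE), with an adjusted p of 9.3e-05 by edgeR and 0.023 by DESeq2. Ppp1r9b, which encodes spinophilin, a targeting subunit of protein phosphatase 1 in spines, fell by 0.19 on the log2 scale (adjusted p = 0.00032). With offsets for GC content and length its log2 fold change was -0.05 (adjusted p = 0.37), and without control replicate 2 it was -0.16 (adjusted p = 0.064).

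Gphn was the only gene that the list grouped as a scaffold of inhibitory synapses. Gephyrin clusters glycine and GABA-A receptors, and it also takes part in making the molybdenum cofactor. Its level was 76.7 and 74.1 CPM with FGF2 and 70.3 and 81.2 CPM without FGF2. Both treated libraries fell between the controls, and the log2 fold change was -0.01 (95% interval -0.15 to 0.14, adjusted p = 0.95). All 10 markers of inhibitory neurons were lower with FGF2 (median log2 fold change -0.98), with a summed level of 779 CPM in each treated library and 1360.2 and 1403 CPM in the controls.

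All 7 receptor auxiliary genes fell. The TARPs Cacng2, Cacng3 and Cacng8 anchor AMPA receptors to PSD-95. Cacng8 (chr7:3390683-3415648) had 20.4 and 20.2 CPM with FGF2 and 39.3 and 33.4 CPM without FGF2, a log2 fold change of -0.84 ± 0.12 (SE) and an adjusted p of 1.1e-11. Cacng2, which encodes stargazin, had 30.9 and 34.4 CPM with FGF2 and 51.4 and 54.4 CPM without FGF2, with a log2 fold change of -0.70 ± 0.10 (SE) and an adjusted p of 7.6e-12. Cacng3 had 18.5 and 15.9 CPM with FGF2 and 26.7 and 26.0 CPM without FGF2, with a log2 fold change of -0.62 ± 0.13 (SE) and an adjusted p of 1.5e-05. The groups were apart for all 3. The shares of Cacng2 and of Cacng3 in the summed TARP level overlapped between the groups, and that of Cacng8 was 41.6% and 41.8% with FGF2 and 47.0% and 42.6% without FGF2.

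Cornichon proteins slow the closing of AMPA receptors. Cnih2 had 54.5 and 43.4 CPM with FGF2 and 75.0 and 66.0 CPM without FGF2, with a log2 fold change of -0.53 ± 0.08 (SE) and an adjusted p of 1.9e-09. Cnih3 had 14.4 and 9.53 CPM with FGF2 and 16.5 and 17.3 CPM without FGF2, with a log2 fold change of -0.51 ± 0.16 (SE) and an adjusted p of 0.0049. The Cnih3 value of FGF2 replicate 2 was far under the others. Without that library the log2 fold change was -0.24 (adjusted p = 0.34), without FGF2 replicate 1 it was -0.83 (adjusted p = 0.00013), without control replicate 2 it was -0.48 (adjusted p = 0.063), and the DESeq2 adjusted p was 0.18. Cnih2 made up 89.3% of the pair per exon length in both groups.

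Neto1 and Neto2 are auxiliary subunits of kainate receptors, and Neto1 has also been tied to NMDA receptors. Neto1 fell by 0.40 on the log2 scale (adjusted p = 2.3e-06) and Neto2 by 0.32 (adjusted p = 2.9e-06). The values of Neto2 were 86.3 and 109 CPM with FGF2 and 122 and 123 CPM without FGF2. The treated libraries of Neto2 lay nearly as far apart as the means of the groups, and its log2 fold change was -0.17 without FGF2 replicate 1 (adjusted p = 0.047) and -0.50 without FGF2 replicate 2 (adjusted p = 4e-10). With offsets for GC content and length it was -0.54 (adjusted p = 1e-17).

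**Figure D3:**
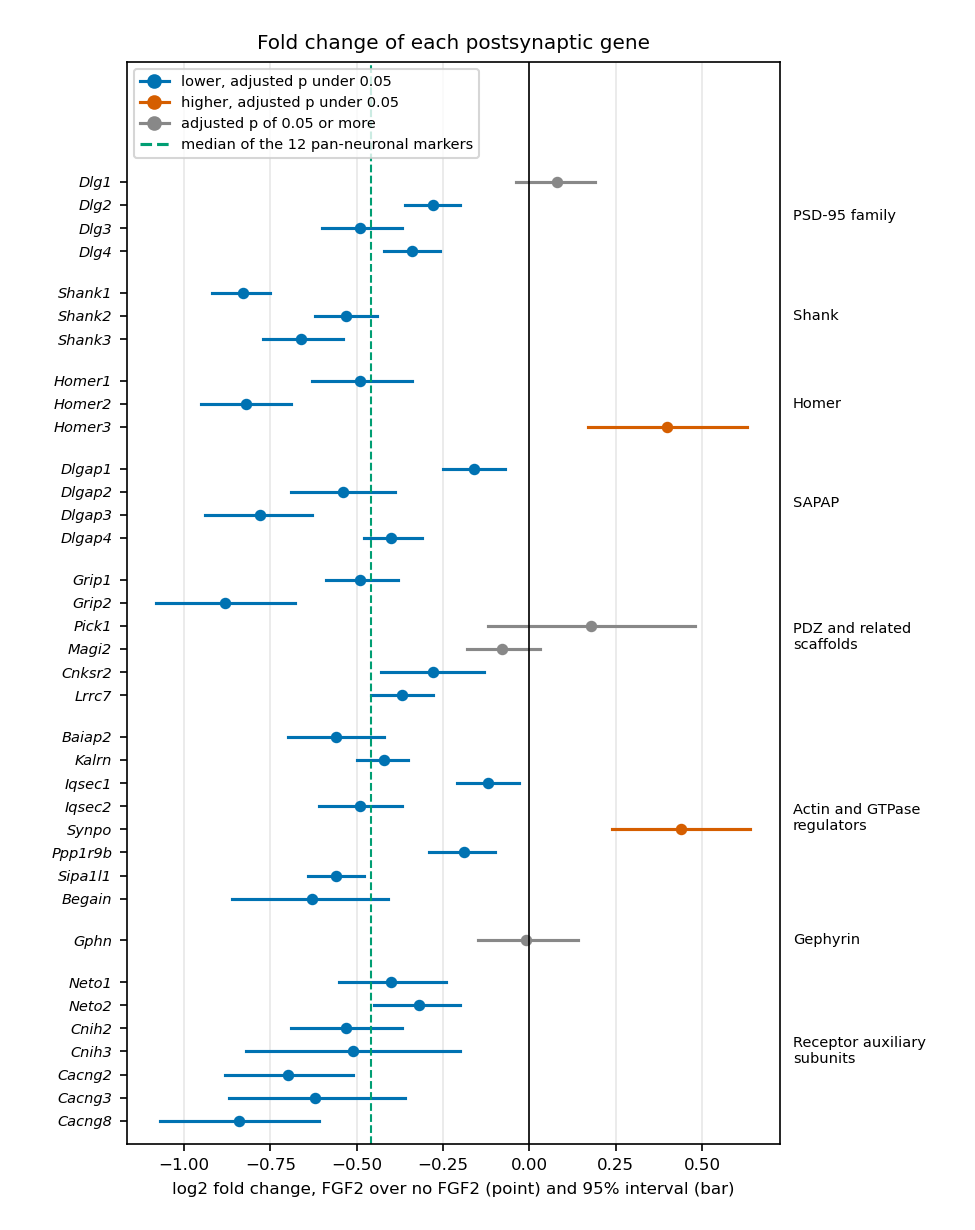
Log2 fold change of each gene, FGF2 over no FGF2 (point), with its 95% interval (bar), in blue for lower, orange for higher and grey for genes that did not pass the adjusted p threshold of 0.05, with the median of 12 pan-neuronal markers (-0.46) as a dashed line. Grip2 (-0.88), Cacng8 (-0.84), Shank1 (-0.83) and Homer2 (-0.82) lie furthest left, and Homer3 and Synpo lie right of 0.

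Per exon length, the levels of the 36 genes without FGF2 ran from 2.19 CPM per kb (Pick1) to 51.5 CPM per kb (Cnih2). The order at the top was Cnih2, Ppp1r9b (44.0 CPM per kb), Shank1 (37.2 CPM per kb), Dlgap4 (35.6 CPM per kb), Sipa1l1 (35.5 CPM per kb) and Dlg4 (33.2 CPM per kb), of which Dlgap4 and Sipa1l1 differed by less than their libraries did. With FGF2 the order was Ppp1r9b (38.5 CPM per kb), Cnih2 (35.8 CPM per kb), Dlgap4 (27.1 CPM per kb), Dlg4 (26.2 CPM per kb), Sipa1l1 (24.0 CPM per kb), Lrrc7 (21.3 CPM per kb) and Shank1 (20.9 CPM per kb). Shank1 thus went from rank 3 to rank 7, and Homer3 went from rank 32 to rank 24. With FGF2, Lrrc7, Shank1, Dlg2 (20.6 CPM per kb) and Gphn (20.1 CPM per kb) differed by less than the Shank1 libraries did. Homer3 (8.90 CPM per kb) was likewise close to Dlgap2 (9.28 CPM per kb) and Cacng8 (8.66 CPM per kb). The exact ranks of Shank1 and Homer3 with FGF2 are therefore not settled. All these ranks also rest on the exon length. The coding part of that length varied between genes, with 2301 of 13251 bases for Dlg4 and 6501 of 10514 bases for Shank1. Ranks by coding length were not taken and could differ, at the top and at the bottom. Pick1 held the last rank in both groups by its full exon length. Gm49486, a gene on the same strand, covers 18.6% of that length. Reads there may not have been counted for Pick1, so its level per kb may be too low. With FGF2 the next lowest gene was Grip2 (2.92 CPM per kb, against 2.48 CPM per kb for Pick1). The genes lie on 18 chromosomes, with 6 of them (Dlg2, Shank1, Shank2, Homer2, Cacng3 and Cacng8) on chromosome 7. Their exon length had a median of 8401 bases, against 3995 bases over the genes tested, and 30 of the 36 were longer than that.

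Genes that work beside the scaffolds were read from a list of 30 synaptic partners, made up of receptors, adhesion proteins and signalling proteins. Of these, 21 fell, 4 rose and 5 did not pass the test, with a median log2 fold change of -0.40. The lowest were Olfm1 (-1.01), which encodes noelin, a secreted partner of AMPA receptors, and the AMPA receptor subunit Gria1 (-0.99). The highest were the adhesion protein gene Lrrtm2 (0.54) and Nrgn (0.53), which encodes neurogranin, a calmodulin-binding protein. The summed level of the partners was 5161 and 5138 CPM with FGF2 and 7353 and 7298 CPM without FGF2, a mean 29.7% lower.

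Markers of cell types moved with these results. Of 12 pan-neuronal markers, 10 fell, 1 rose and 1 did not pass the test, with a median log2 fold change of -0.46 and a range from -1.10 to 0.38. Their summed level was 3659 and 3795 CPM with FGF2 and 5356 and 5329 CPM without FGF2, a mean 30.2% lower. The ratio of the 36 postsynaptic genes to these markers, as summed levels, was 1.23 and 1.17 with FGF2 and 1.09 and 1.12 without FGF2. Most of the marker sum came from Map2 (mean 1572 CPM with FGF2 and 1962 CPM without) and Dcx (687 and 1194 CPM), so few genes set this ratio. The median log2 fold changes, which weigh genes alike, were -0.49 for the 36 genes and -0.46 for the markers. By log2 fold change, 19 of the 36 genes lay under the median of the neuronal markers and 17 above it, and 34 lay within the range of the markers. Of 9 excitatory neuron markers, 4 fell and 5 did not pass the test (summed level 313 and 312 CPM with FGF2 against 424 and 429.9 CPM).

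Glial markers were higher with FGF2. Of 10 astrocyte markers, 8 rose, 1 fell and 1 did not pass the test, and their summed level was 12720 and 12594 CPM with FGF2 and 7772 and 7722 CPM without FGF2. All 9 oligodendrocyte lineage markers that were tested, of 10 listed, rose, with a summed level of 1859 and 1868 CPM against 558 and 567 CPM. Microglia markers were at 10.8 and 12.3 CPM in sum with FGF2 and 5.60 and 4.97 CPM without FGF2, with 3 of 7 tested and 2 of them higher. Progenitor and proliferation markers summed to 1949 and 1946 CPM against 1057 and 1086 CPM, with 3 of 8 higher and 2 lower and a median log2 fold change of -0.26. That difference in sum was carried by Vim (1576 and 1566 CPM against 662 and 681 CPM), and the other 7 summed to 374 and 379.9 CPM with FGF2 and 395 and 404 CPM without FGF2, the opposite direction. Fibroblast markers stood at 55.5 and 51.7 CPM against 44.8 and 44.3 CPM, with 1 of 4 tested higher and 2 lower and a median log2 fold change of -0.91. Pdgfrb alone gave the higher sum (49.0 and 46.4 CPM against 28.6 and 28.8 CPM), and the other 4 listed summed to 6.49 and 5.27 CPM with FGF2 and 16.2 and 15.5 CPM without FGF2. Endothelial markers were near 0, with Cldn5 at 0 in every library and a summed level from 1.72 to 2.95 CPM. The part of these cell types in the levels of the postsynaptic genes was not tested.

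**Figure D4:**
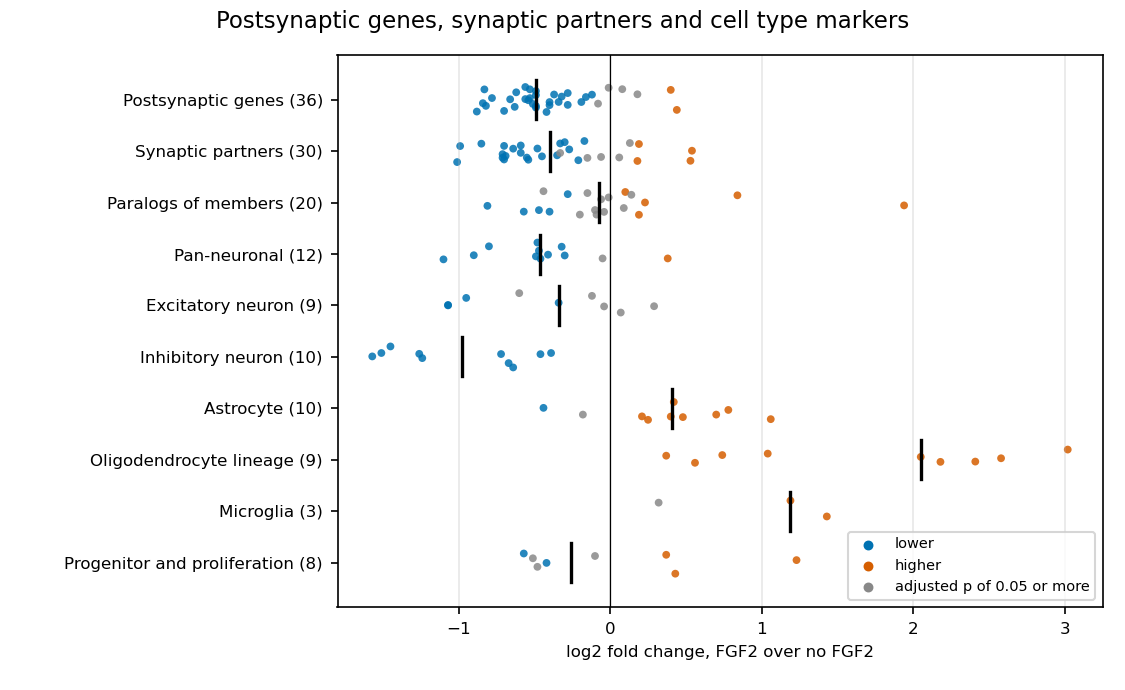
Log2 fold change, FGF2 over no FGF2, of each tested gene (point) in 10 lists, with the list's median as a black bar, the number of tested genes in brackets, and a random vertical offset. The medians of the postsynaptic genes (-0.49), the synaptic partners (-0.40) and the pan-neuronal markers (-0.46) lie left of 0, and those of astrocyte (0.41) and oligodendrocyte lineage markers (2.05) lie right of it.

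Promoters were searched for the motifs of factors that act in neurons or below growth factor receptors. RefSeq windows of 300 bases (250 before and 50 after the start) were at hand for 31 of the 36 genes, with 55 windows in all. The motifs were chosen after the values had been seen and were searched on both strands. TGACG lay in 8 of the 55 windows (14.5%), in 7 genes (Cnksr2, Dlg3, Dlg4, Dlgap4, Grip1, Homer1 and Pick1), and in 20.8% of the 32851 windows of all genes. The full element TGACGTCA, which contains TGACG, lay in none of the 55 and in 1.79% of all. The AP-1 site TGANTCA lay in none of the 55 and in 7.81% of all. The ETS site CCGGAAGT lay in 2 windows, of Homer1 and Pick1 (3.64%), against 3.89% of all. The EGR site GCGTGGGCG lay in 1 window, of Shank3 (1.82%, against 0.612% of all), and TTCAGCACC, part of the site of the repressor REST, in 1 window, of Grip2 (1.82%, against 0.371% of all). A match of these letters is a description of the sequence.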

How the data were processed

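RNA of mouse P0 PFC cultures was measured in 4 libraries. The authors mapped the reads to mm10 with HISAT2 2.1.0, kept reads with a mapping quality of at least 20 in Samtools and counted them per gene with HTSeq 0.11.2 (versions from the submitters' processing notes), and the deposited values are raw counts without normalization. The annotation and the strand setting of the counting were not given in the sources used here. From the values, the strands were kept apart: of genes covered whole by exons of other genes, 61 of 439 covered on the opposite strand had at least 10 counts in all, against 1 of 765 covered on the same strand. The libraries held 9166432 and 9907613 gene counts (FGF2) and 10460236 and 10799886 (no FGF2), so that 3 counts correspond to 0.276 to 0.33 CPM. Read pairs in no feature made up 43.1% to 45.9% of each library, and the 5 tallies that name no gene were left out. Of 55421 identifiers, 55240 matched GENCODE M21, which gave names, coordinates and lengths.

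For the counts, edgeR 4.0.16 (R 4.3.3) was used with its quasi-likelihood test (TMM factors of 0.992 to 1.01, edgeR's expression filter, robust fit, Benjamini-Hochberg adjustment over 17144 genes). CPM are scaled by the TMM factors. A share of a family is a gene's CPM per exon length over the sum of its family. The alternatives were DESeq2 1.42.0, limma-voom 3.58.1, other scalings and filters, offsets for GC content and length, a replicate block, an adjusted p of 0.01 and leaving out each library. Replicates of a group differed by more than sampling noise (chi-square per degree of freedom 2.28 with FGF2 and 1.76 without FGF2), and were kept as separate libraries. By BLAST 2.17.0, transcripts of Dlg4 and Shank1 share stretches (95% identity or more, 100 bases or longer) with genes elsewhere, up to 200 and 215 bases, where reads could be lost to the mapping quality filter.

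The members, the marker and partner lists and the tests were chosen with earlier results of these data known. Values in every library are given for the 20 members with the largest log2 fold change among those past the threshold and for members at opposite ends of a family or role group, and of the partners and paralogs the 2 highest and the 2 lowest called genes are named.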

Additional observations from a re-analysis of the deposited data

How the results depend on the processing

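Over all the alternatives, 29 of the 36 genes kept their direction and their side of the threshold. The count of genes that rose was 2 and fell to 1 with DESeq2, where Homer3 lost its call, and ranged from 1 to 2 as each library was left out. The count that fell was 30, with 28 in DESeq2, 28 with offsets for GC content and length, 29 without the expression filter, 29 at an adjusted p of 0.01 and 27 to 29 as each library was left out. The share over all genes was taken only for the main fit, for DESeq2 and for the threshold of 0.01. The counts under the other alternatives therefore have no such share beside them. The median log2 fold change over the 36 genes lay between -0.51 and -0.44. The sign turned for Dlg1 without control replicate 1 (range over the libraries left out -0.01 to 0.16) and for Gphn without FGF2 replicate 2 (0.01) and without control replicate 2 (0.10, range -0.11 to 0.10), and the change passed the threshold for neither gene in any alternative. The calls of Homer3, Iqsec1, Ppp1r9b, Cnih3 and Dlgap1 were lost in at least 1 alternative. The causes were not tested. Fewer calls by DESeq2 were general, with 11.2% of its 17279 genes lower and 12% higher. With the replicate number as a block, 30 genes fell and 2 rose as before. The deviations of libraries with the same number had a correlation of 1.3e-05 over 17144 genes, so the numbers gave no sign of a pairing. With the coding length in place of the exon length, the difference of the family shares (FGF2 minus no FGF2, in points) was 2.94 for Dlg1, -1.77 for Dlg3, 1.06 for Homer1, -9.86 for Homer2, 8.80 for Homer3, 5.48 for Dlgap1, -1.24 for Dlgap2, -3.07 for Dlgap3, -1.17 for Dlgap4, 5.22 for Iqsec1 and -5.22 for Iqsec2, which turned the sign for Homer1 (-3.94 by exon length) and Dlgap4 (1.55). With 2 libraries per group the exact test of a share cannot go under 0.333.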

Other observations

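Of 23 paralogs of the 36 genes, some of which are also synaptic, 20 were tested, of which 5 rose, 5 fell and 10 did not pass the test, with a median log2 fold change of -0.07. Their summed level was 2449 and 2447 CPM with FGF2 and 2405 and 2426 CPM without FGF2. The highest were Cnksr3, a relative of Cnksr2, with 48.6 and 50.7 CPM with FGF2 and 12.9 CPM in each library without FGF2 (log2 fold change 1.94, edgeR adjusted p = 8.9e-57), and Erbin, a relative of Lrrc7 that binds the receptor ErbB2, with 307 and 334 CPM against 179.9 and 178 CPM (0.84, adjusted p = 4.1e-72). The lowest were Iqsec3, the relative of Iqsec1 and Iqsec2 that is found at inhibitory synapses, with 71.9 and 70.1 CPM against 121 and 128 CPM (-0.81, adjusted p = 1.8e-31), and Cacng4, a further TARP, with 97.9 and 85.6 CPM against 139 and 133 CPM (-0.57, adjusted p = 1.9e-18). In each of these 4 genes the libraries of the groups did not overlap.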
